A study of Mus musculus with 18 samples.

Results

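The chemokines and their receptors were examined in RNA-seq libraries from mouse liver and from white fat of the inguinal (iWAT) and epididymal (eWAT) depots. Gene identifiers were matched to GENCODE M21 symbols, and every symbol that starts with Ccl, Cxcl, Ccr or Cxcr followed by a digit was taken, together with Cx3cl1, Cx3cr1, Xcl1 and Xcr1. This gave 57 genes of the 22298 in the tables, of which 38 encode ligands and 19 encode receptors. The study set KO against WT in each tissue, with 3 libraries per group and 18 in all. KO mice carried Bckdha f/f and RIP-Cre, and WT mice carried Bckdha f/f without Cre, so the floxed Bckdha gene was shared by both groups. All were C57BL/6 mice aged 12 weeks, and no sex is stated. RIP-Cre commonly means Cre under the rat insulin promoter, known to act in beta cells of the pancreas and in some neurons, and mice with RIP-Cre but no floxed gene are not among the groups analysed here. Separate animals are not stated for the 3 libraries of a group, so each p-value reflects the spread of these libraries alone, and that spread may be technical.

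Chemokines are small secreted proteins that guide the movement of leukocytes by binding G protein-coupled receptors on their surface. Inflammatory chemokines such as Ccl2 and Cxcl1 are induced in stressed tissue and draw in monocytes and neutrophils, whereas homeostatic chemokines such as Ccl19, Ccl21a and Cxcl13 organise B cells, T cells and dendritic cells in lymphoid organs. In fat they are known mainly for the recruitment of monocytes that become adipose tissue macrophages, and the inguinal fat pad of the mouse contains a lymph node.

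Total expected counts, the authors' estimated reads per gene summed over a library, lay between 16796147 and 24357859 for eWAT, 17959394 and 28039742 for iWAT, and 18629302 and 25969223 for liver. Values per library are CPM (read counts relative to the TMM-scaled library size) unless FPKM, the authors' length-scaled unit, is named. Bckdha itself had 465, 375 and 330 CPM in KO livers against 374, 432 and 445 CPM in WT livers, and its adjusted p was 0.953 in liver, 1 in iWAT and 0.802 in eWAT (edgeR's quasi-likelihood test, Benjamini-Hochberg). Of the eWAT libraries, WT replicate 2 stood apart: a list of 8 genes of epididymal epithelium summed to 47138 CPM there and Adipoq, made by adipocytes, to 12.1 CPM, against 736 to 2802 CPM in the other 5. KO replicates 1 and 3 held 1096 and 1259 CPM of the epididymal list, and the remaining 3 eWAT libraries 1.23 to 35.8 CPM. In iWAT, WT replicate 2 held 126 CPM of a list of 10 B cell genes, against 1209 to 3253 CPM in the other 5 libraries. Results are therefore given with and without these libraries where they touch them.

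Of the 57 genes, 14 lie on chromosome 11, 12 on chromosome 9 and 11 on chromosome 5 (mm10, GENCODE M21 coordinates). Many sit in clusters. Ccl2, Ccl7, Ccl11, Ccl12, Ccl8 and Ccl1 lie within chr11:82035571-82305690, and Ccl5, Ccl9, Ccl6, Ccl3 and Ccl4 within chr11:83525778-83664683. The neutrophil-attracting genes Cxcl5, Cxcl3, Cxcl1 and Cxcl2, with Cxcl15 between them, lie within chr5:90759360-90905938. A receptor cluster, with Ccr1, Ccr2, Ccr3 and Cxcr6 among its genes, lies on chromosome 9. The gene spans of 13 members overlap a gene of the opposite strand, among them Cxcl16 with Zmynd15, Ccl25 with Elavl1, Ccl27a with Il11ra1, and both Cxcl10 and Cxcl11 with Art3. Spans were compared whole, introns included. No source states whether the kit kept strand, and without it reads from transcribed bases shared by such a pair cannot be told apart. Cx3cr1 also overlaps Gorasp1, Csrnp1 and Xirp1 on its own strand.

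Of the 57 members, 56 had at least 1 read in at least 1 library, Ccl26 had none, and 31 had at least 1 read in every library. A median of at least 1 FPKM over the 6 libraries of a tissue was reached by 42 members in iWAT, 28 in eWAT and 14 in liver, and a median of at least 10 FPKM by 19, 7 and 2 members in the same order of tissues. Receptors accounted for 15 of the 42 in iWAT, 6 of the 28 in eWAT and 1 of the 14 in liver. iWAT thus held the widest set of receptors above this level and liver the narrowest.

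Cxcl12, which retains CXCR4-bearing cells in bone marrow and other niches, was the member of highest median FPKM in liver and eWAT and of second highest in iWAT. Its FPKM was 155, 132 and 143 in KO livers against 172, 107 and 164 in WT livers, 144, 225 and 185 in KO iWAT against 297, 159 and 211 in WT iWAT, and 137, 107 and 116 in KO eWAT against 117, 38.7 and 54.2 in WT eWAT. In liver Ccl9 followed with a median of 16.2 FPKM, then Ccl6 with 9.95, Cxcl10 with 5.45, Cxcl16 with 4.98 and Cxcl1 with 4.94 FPKM. Even the lowest liver library for Cxcl12, with 107 FPKM, lay above the highest for Ccl9, with 23.4 FPKM, while the ranges of Cxcl10, Cxcl16 and Cxcl1 overlapped each other.

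In iWAT the top member was Ccl21a, the lymphoid chemokine that binds Ccr7, with a median of 497 FPKM and a range of 0.63 to 661. Ccl8, a ligand of macrophage origin that attracts monocytes, had a median of 182 FPKM, Ccl5, made by T cells and NK cells, 142 FPKM, and Ccl19, the other Ccr7 ligand, 118 FPKM. Ccl6, which macrophages make, had 87.5 FPKM. In eWAT Ccl6 had a median of 111 FPKM with a range of 4.34 to 806, followed by Ccl21a with 75.5, Ccl8 with 27.8, Ccl9 with 26.9 and Ccl21b with 23.6 FPKM. The order in both fat depots rests on wide ranges, since single libraries lay far below or above the rest for Ccl21a and Ccl6.

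**Figure D1:**
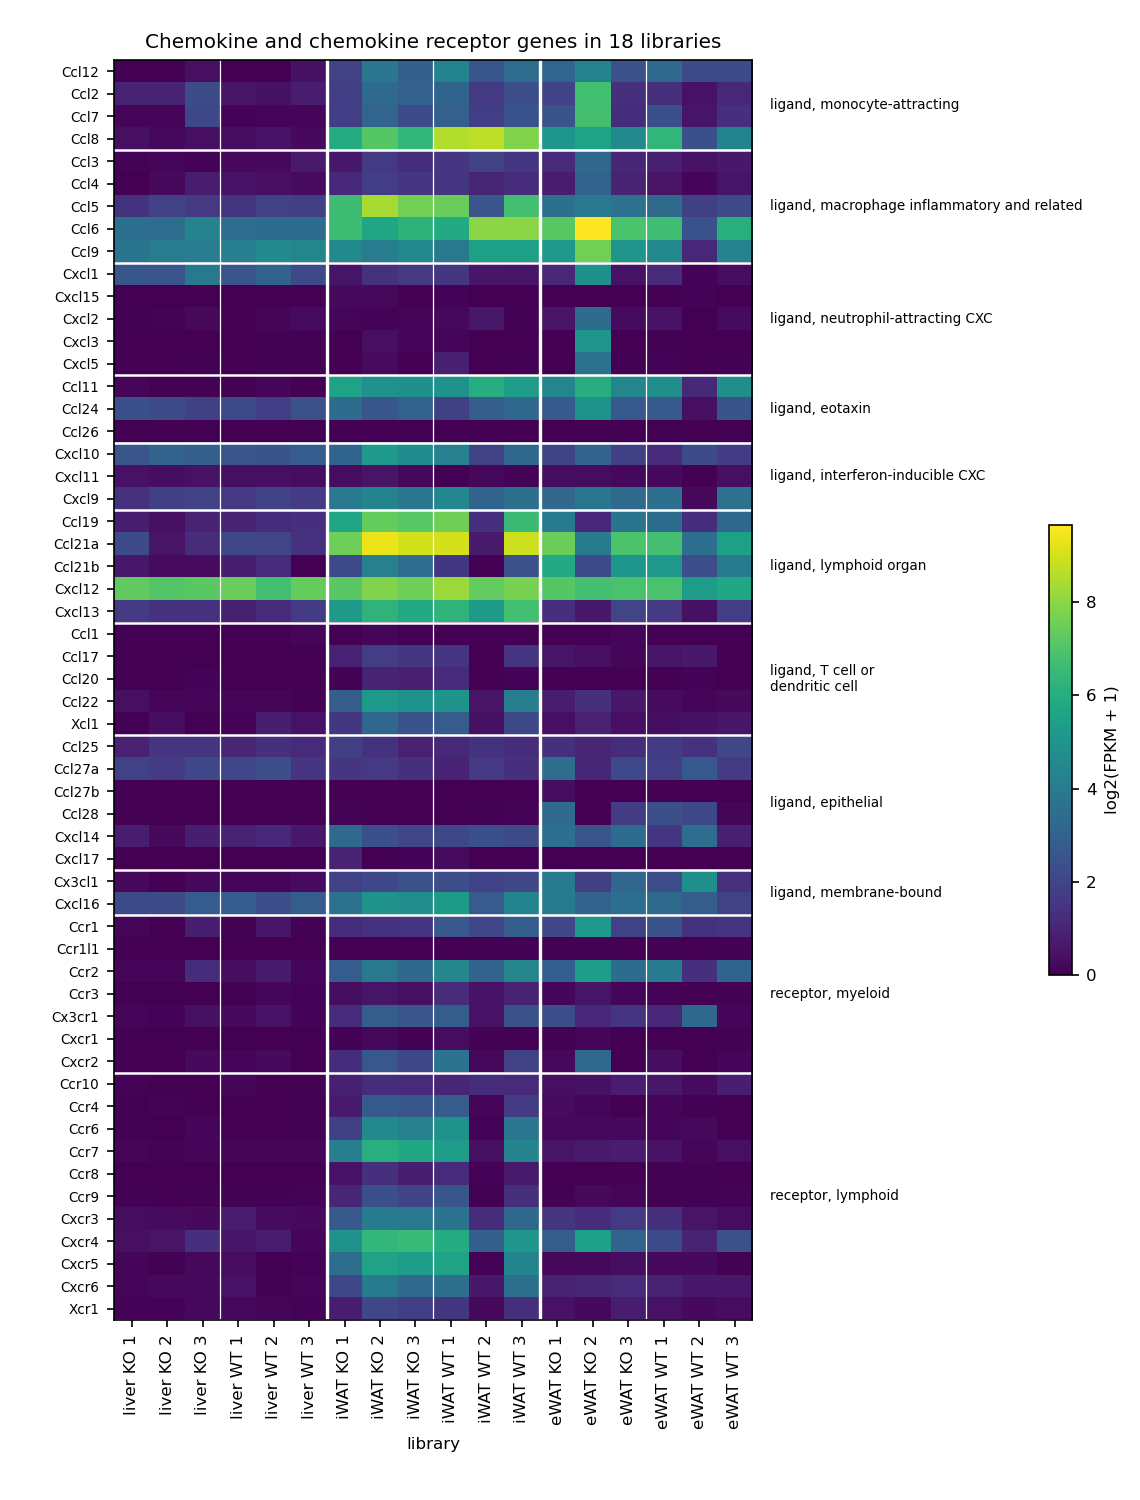
Level of the members shown in each library as log2(FPKM + 1), with rows grouped by role and libraries grouped by tissue, KO left of WT. Brighter means higher: most lymphoid receptors are brighter in 5 of the 6 iWAT libraries than in WT replicate 2, where they are dark, and eWAT KO replicate 2 stands out among the inflammatory ligands and myeloid receptors.

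Ccl21a and Ccl21b encode nearly the same protein, and their transcripts differ at 2 of 402 aligned bases (99.5% identity), so how the authors' counting split reads between them is uncertain. As deposited, Ccl21b took 18.6% to 27% of the counts of both genes in eWAT, 0% to 2.59% in iWAT and 0% to 36% in liver, where the 2 genes together had few reads. The share differed between the depots without overlap, but either gene's own level carries this uncertainty.

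In eWAT 0 members passed the test of KO minus WT with edgeR, in a comparison where 0% of all 14657 genes tested did, and DESeq2 also called 0 members and 0.928% of genes. Of the 57 members, 36 passed the filter on low counts. An unadjusted p under 0.05 was reached by 2 of the 36, against 5.75% of all genes tested. Both, Ccl2 and Ccl22, were higher in KO, as were 2.84% of genes. KO and WT libraries did not overlap for 4 of the 36, against 16.1% of all genes. These were Ccl3, Ccl9 and Ccl22, higher in KO as were 9% of genes, and Ccl25, lower in KO as were 7.11%. The median log2 fold change was 0.59 over the 36 members and -0.02 over all genes, and 29 of the 36 were higher in KO, against 48.5% of genes. On the authors' FPKM, as log2(FPKM + 1), these medians were 0.78 for the members and 0.28 for all genes, with 34 of 36 higher. Neither share of members under p 0.05 nor share of members without overlap exceeded its background.

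Among the monocyte-attracting ligands, Ccl2, which acts through Ccr2, had 1.4, 59.9 and 0.755 CPM in KO eWAT against 0.966, 0.211 and 0.863 CPM in WT eWAT. Ccl7, a further ligand of Ccr2, had 2.21, 62.4 and 0.718 CPM in KO eWAT against 2.6, 0.253 and 1.15 CPM in WT eWAT. In both, KO replicate 2 stood far above the other 5 libraries, which overlapped each other. The fitted log2 fold change of Ccl2 was 4.91 ± 1.92 (SE) and that of Ccl7 4.02 ± 1.87, each with an adjusted p of 0.706 (edgeR's quasi-likelihood test, Benjamini-Hochberg). Without KO replicate 2 the log2 fold change of Ccl2 was 0.59 ± 0.86 and that of Ccl7 0.05. A single library thus carried both differences.

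The same library held over 50% of the summed CPM of the 6 eWAT libraries for 16 of the 41 members that reached 1 CPM in eWAT, whereas it did so for 1.27% of all genes at that level. Over the 6 eWAT libraries together, 16.2% of genes had over 50% of their CPM in 1 library, whichever it was. KO replicate 2 was also the highest library for 22 of the 41 members, against 16.5% of genes. Ccl3, Ccl4, Ccl22, Ccr3, Cxcl1, Cxcl2, Cxcl3, Cxcl5 and Cxcr2 reached 1 CPM in that library alone. They entered the 41 through it, and all but Ccl22 are among the 16. The counts of 16 and 22 were therefore partly fixed by this entry rule. The CPM summed over all members was 739, 2182 and 653 in KO eWAT against 807, 224 and 502 in WT eWAT. Over the receptors alone it was 337 CPM in KO replicate 2 and 36 to 86.9 CPM in the other 5.

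Neutrophil-attracting CXC ligands, which bind Cxcr2, made up 4 of the 16. Cxcl3 had 22.7 CPM (586 reads) in KO replicate 2, 0 CPM in KO replicates 1 and 3, and 0.0372, 0 and 0 CPM in the WT libraries, so that 99.8% of its CPM lay in that library. Cxcl5 had 12.6 CPM there and at most 0.0822 CPM elsewhere in eWAT, and Cxcl2 had 7.83 CPM there and at most 0.334 CPM elsewhere. Cxcl1 had 0.638, 18.6 and 0.227 CPM in KO eWAT against 0.929, 0.0422 and 0.246 CPM in WT eWAT. Their receptor Cxcr2, which marks neutrophils, had 0.196, 19.8 and 0.0378 CPM in KO eWAT against 0.672, 0.0422 and 0.37 CPM in WT eWAT. Ligands and receptor were thus high in 1 and the same library, and Cxcl1 alone of these 5 genes passed the filter on low counts, with a log2 fold change of 3.97 ± 1.97 (edgeR, Benjamini-Hochberg adjusted p = 0.706) that was 0.02 without KO replicate 2.

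Cxcl1, Cxcl2 and Cxcl3 are neighbours on chromosome 5, and their promoters are shown because these genes stood out in the same library. The longest run of letters common to the 100 bases before their start sites, in RefSeq sequence of GRCm38.p6, was GGGAATTTCCC, which holds a form of the site bound by NF-kB. It was taken from these 3 genes after their values were seen, so their own matches are by construction. Searched on both strands of 300 bases per gene, 250 before to 50 after the start site, it was present in 14 of 27025 promoters (0.0518%), and in 3 of the 42 members that had an entry, the same 3. The 100 bases before the start site follow, from chr5:90891145-90891244, chr5:90903799-90903898 and chr5:90786001-90786100 in turn, all on the plus strand, with the motif in capitals.
Cxcl1: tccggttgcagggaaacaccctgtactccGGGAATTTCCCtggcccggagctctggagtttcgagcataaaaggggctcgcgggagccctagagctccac
Cxcl2: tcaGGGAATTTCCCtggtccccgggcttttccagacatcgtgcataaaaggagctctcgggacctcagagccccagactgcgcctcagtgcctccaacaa
Cxcl3: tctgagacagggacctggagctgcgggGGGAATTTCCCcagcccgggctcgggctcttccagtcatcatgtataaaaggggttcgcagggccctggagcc
The motif begins 71 bases before the start site of Cxcl1, 97 before that of Cxcl2 and 73 before that of Cxcl3. A match describes these letters and is not evidence of a site in use.

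The macrophage inflammatory ligands showed the same library at the top with higher levels elsewhere. Ccl6 had 125, 822 and 113 CPM in KO eWAT against 115, 4.43 and 89.3 CPM in WT eWAT, and Ccl9 had 61.5, 407 and 61.5 CPM in KO eWAT against 52.3, 2.32 and 54.2 CPM in WT eWAT. Ccl3 and Ccl4, which activated macrophages secrete, reached 4.38 and 3.45 CPM in KO replicate 2, against at most 0.565 and 0.378 CPM in the other 5 libraries. For Ccl6 and Ccl9 the lowest library was WT replicate 2, the library rich in epididymal transcripts, so the group difference rested on libraries at both ends.

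Of the myeloid receptors, Ccr1, which binds Ccl3, Ccl5, Ccl6 and Ccl9, had 5.33, 73.7 and 5.02 CPM in KO eWAT against 10.2, 3.33 and 5.01 CPM in WT eWAT. Ccr3, the eotaxin receptor, reached 1.08 CPM in KO replicate 2. The eotaxin Ccl24 had 14.7 CPM there, against 0.127 to 3.49 CPM in the other 5 libraries. Cxcr4, the receptor of Cxcl12 on many leukocytes, had 43.7 CPM there, against 0.802 to 7.21 CPM in the others. Just inside the 50% limit was Ccl24, with 55.7% of its CPM in KO replicate 2, and just outside was Ccr2, the monocyte receptor of Ccl2, with 49.4% (104 CPM there). By position, 4 of the 5 members of the Cxcl5 to Cxcl2 cluster, 4 of the 5 of the Ccl5 to Ccl4 cluster and 2 of the 6 of the Ccl2 to Ccl1 cluster were among the 16, and none of the interferon-inducible Cxcl9, Cxcl10 and Cxcl11 was.

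**Figure D2:**
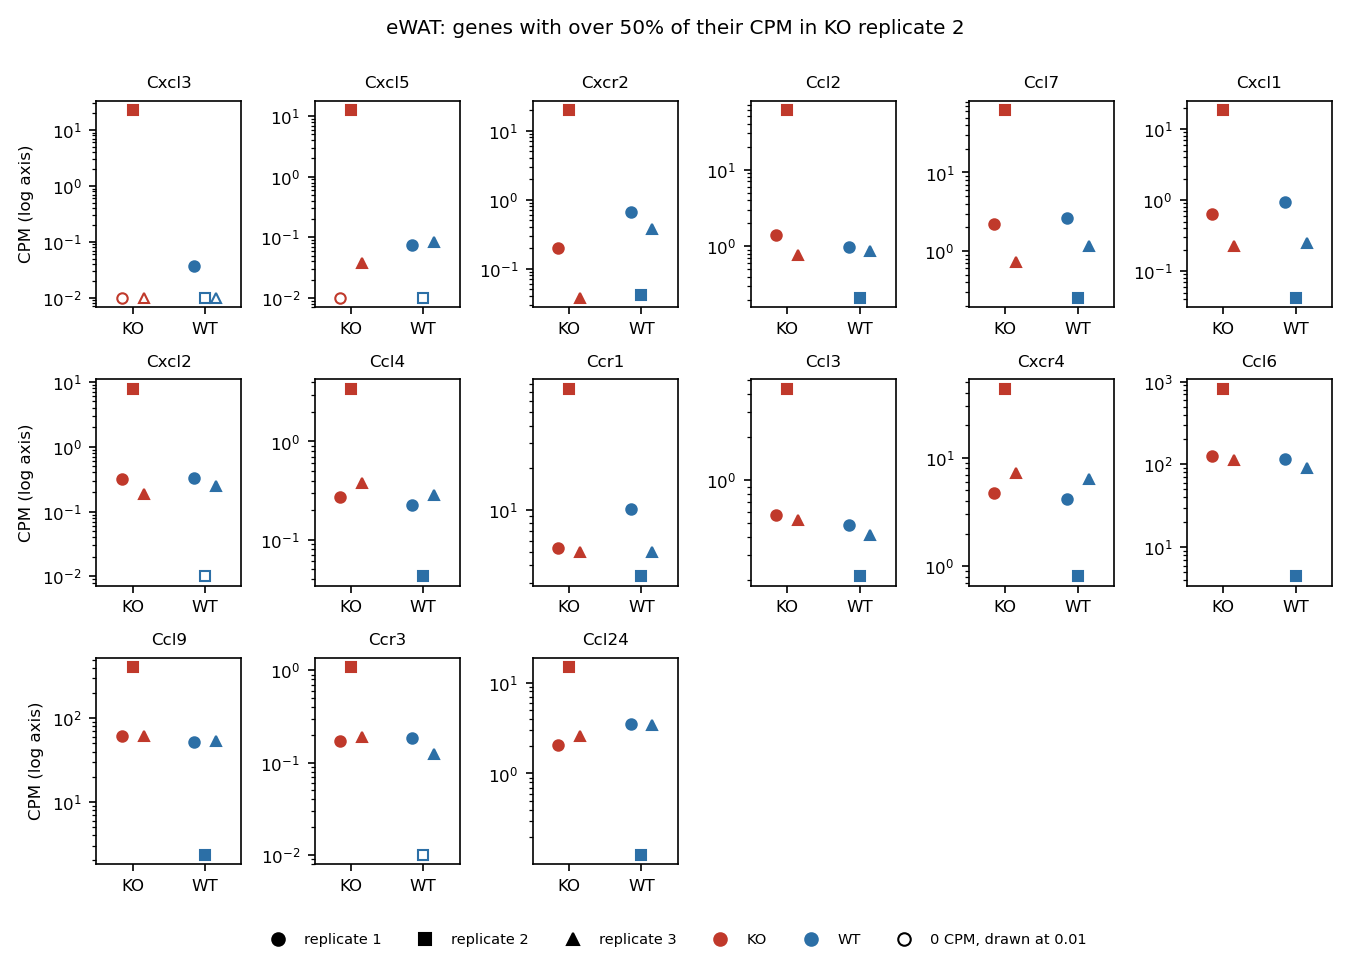
CPM on a log axis of members of which eWAT KO replicate 2 held over 50% of the summed CPM, in the 3 KO libraries (left) and the 3 WT libraries (right) of eWAT, with hollow points for 0. The KO replicate 2 point lies above the other 5 for each gene, from 1.08 CPM for Ccr3 to 822 CPM for Ccl6.

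Neutrophil and macrophage markers moved with these genes. Lists of T cell, B cell, dendritic cell and NK cell genes were not highest in KO replicate 2, but the last 2 were second highest in it. The T cell list summed to 23.6 CPM there, against 13 to 29.2 CPM in the other eWAT libraries. The B cell list summed to 73.5 CPM there, against 12 to 127 CPM in the others. The dendritic cell list summed to 86.7 CPM there, against 18.5 to 87.6 CPM in the others. The NK cell list summed to 8.83 CPM there, against 107 CPM in WT replicate 2 and 5.18 to 7.73 CPM in the rest. A list of 8 neutrophil genes summed to 14.3, 171 and 15.8 CPM in KO eWAT against 23, 3.63 and 13.2 CPM in WT eWAT, with S100a8 at 15.8 CPM and Csf3r at 60 CPM in KO replicate 2. A list of 12 macrophage genes summed to 1052, 2017 and 1181 CPM in KO eWAT against 1170, 217 and 813 CPM in WT eWAT. Genes chosen after their values were seen were also high in KO replicate 2: the platelet chemokines Ppbp at 89.9 CPM and Pf4 at 135 CPM, and the cytokines Il1b at 6.59, Tnf at 3.1 and Il6 at 2.25 CPM. The epididymal list summed to 16.9 CPM in this library and a list of 6 mesothelial genes to 24.2 CPM, against 19.6 to 274 CPM for the mesothelial list in the other eWAT libraries. The part of these cells in the result was not tested, and in bulk tissue fewer cells of a type and less RNA per cell cannot be told apart.

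Leaving out the 3 eWAT libraries with abundant epididymal transcripts (KO replicates 1 and 3 and WT replicate 2) leaves KO replicate 2 as the lone KO library against 2 WT libraries. Its spread is then assumed to be that of the WT pair. In that fit Ccl2 rose by 6.03 ± 0.41 on the log2 scale (adjusted p = 0.0144) and Ccl7 by 5.06 (adjusted p = 0.03, edgeR, Benjamini-Hochberg), where 0.17% of all genes were called and 0.156% called higher. Cxcl3, Cxcl5 and Cxcr2 were also called, but they failed the filter on low counts over the 6 eWAT libraries and entered this fit with 586, 326 and 510 reads in KO replicate 2, so that no count of members is read from it. These calls describe that 1 library. Without it, 0 of 37 members reached an unadjusted p under 0.05, against 3.57% of genes, and 23 of the 37 were higher in KO.

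Ccl22, a dendritic cell ligand of Ccr4, was the eWAT member of lowest p. It had 0.909, 2.36 and 0.793 CPM in KO eWAT against 0.372, 0.211 and 0.411 CPM in WT eWAT, which correspond to at most 61 reads in a library. All 3 KO libraries lay above all 3 WT libraries, with a log2 fold change of 2.0 ± 0.70 (adjusted p = 0.706, edgeR, Benjamini-Hochberg). Without KO replicate 2 it was 1.3 and the groups still did not overlap. Ccl25, a ligand of Ccr9, had 0.909, 0.775 and 0.831 CPM in KO eWAT against 1.26, 1.22 and 2.75 CPM in WT eWAT (log2 fold change -1.08 ± 0.55, adjusted p = 0.706, edgeR), and was named because the groups did not overlap.

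eWAT WT replicate 2 was the lowest library for 26 of the 41 members, against 30.5% of genes. Ccl9 stood there at 2.32 CPM and Cxcl9, an interferon-inducible ligand of Cxcr3, stood at 0.295 CPM, against 14.1 to 31.9 CPM in the other 5 libraries. Cx3cr1, the receptor for fractalkine on monocytes and macrophages, went the other way, with 8.3, 2.75 and 3.97 CPM in KO eWAT against 3.01, 20.4 and 0.452 CPM in WT eWAT, so that WT replicate 2 held 52.5% of its CPM. Its ligand Cx3cl1, a membrane-bound chemokine of endothelial and epithelial cells, had 28.1, 6.01 and 17.5 CPM in KO eWAT against 10.4, 63.4 and 5.18 CPM in WT eWAT. Without WT replicate 2 the log2 fold change of Ccl2 was 4.49 and that of Ccl22 1.79, and no member passed the test.

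Ccl28, a mucosal epithelial ligand of Ccr10, had 21.3, 0.0387 and 5.32 CPM in KO eWAT against 12.2, 8.65 and 0.37 CPM in WT eWAT. It was low in the same 2 libraries, KO replicate 2 and WT replicate 3, as a list of mesothelial and a list of epididymal epithelial genes. The mesothelial list summed to 143, 24.2 and 274 CPM in KO eWAT against 167, 157 and 19.6 CPM in WT eWAT. The epididymal epithelial list summed to 1096, 16.9 and 1259 CPM in KO eWAT against 35.8, 47138 and 1.23 CPM in WT eWAT. The order was not the same throughout. KO replicate 3 had the highest mesothelial sum and less Ccl28 than 3 other libraries. WT replicate 2 had by far the highest epididymal sum but not the most Ccl28. WT replicate 1 had an epididymal sum of only 35.8 CPM but the second highest Ccl28, at 12.2 CPM. A list of 6 smooth muscle genes was also lowest in KO replicate 2 and WT replicate 3, with 128 and 220 CPM. The part of any of these cell types in the Ccl28 reads was not tested.

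In iWAT no member passed the test of KO minus WT with edgeR, in a comparison where 0% of all 14226 genes tested did. An unadjusted p under 0.05 was reached by 3 of the 46 members tested, against 4.17% of genes, and each of the 3 was lower in KO, as were 2.8% of genes. KO and WT libraries did not overlap for 3 members, against 9.35% of genes: Ccr1, Ccl8 and Cxcl12, each lower in KO, as were 5.7% of genes. Myeloid receptors leaned down and lymphoid receptors up. Of 6 myeloid receptors tested, 5 were lower in KO with a median log2 fold change of -0.81, and of 11 lymphoid receptors 10 were higher with a median of 0.37, beside 0.01 over all genes. The second of these leanings rested on WT replicate 2: without it 4 of the 11 lymphoid receptors were higher (median -0.13), whereas 6 of the 6 myeloid receptors were lower (median -1.21).

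Ccr1 had 2.75, 2.99 and 3.51 CPM in KO iWAT against 10.5, 7.08 and 13.2 CPM in WT iWAT. Every KO library lay below every WT library, and the KO libraries differed little among themselves. The log2 fold change was -1.72 ± 0.29, with an adjusted p of 1 over all genes (edgeR's quasi-likelihood test, Benjamini-Hochberg). Ccl8 had 21.8, 46.9 and 30.4 CPM in KO iWAT against 138, 172 and 87.9 CPM in WT iWAT, again without overlap, and a log2 fold change of -2.00 ± 0.36 (adjusted p = 1, edgeR). With DESeq2 both were called lower, Ccr1 at -1.71 (adjusted p = 0.00056) and Ccl8 at -1.99 (adjusted p = 0.000657), where DESeq2 called 60 genes or 0.439%, with 0.256% called lower, and edgeR 0. Over 15 alternative settings the log2 fold change of Ccr1 ranged from -1.93 to -1.14 and that of Ccl8 from -2.32 to -1.76. Both genes were therefore lower in KO under each of these settings, and the call depended on the tool.

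Ccr3, Ccl6 and Ccr2 were lower on average in KO iWAT with overlap, whereas the myeloid receptor Cx3cr1 had a log2 fold change of 0.16 ± 0.91 (adjusted p = 1, edgeR). Ccr3 had 0.663, 1.03 and 0.757 CPM in KO iWAT against 3.2, 0.991 and 2.21 CPM in WT iWAT (log2 fold change -1.37 ± 0.51, adjusted p = 1, edgeR). Ccl6 had 104, 49.7 and 76.7 CPM in KO iWAT against 61.7, 302 and 276 CPM in WT iWAT, with 1 WT library among the KO values. Ccr2 had 15.3, 30.7 and 20.1 CPM in KO iWAT against 51.6, 21.2 and 51 CPM in WT iWAT. For Ccr2 the overlapping library was WT replicate 2, and without it the log2 fold change was -1.21 ± 0.29, beside -0.90 ± 0.40 with it. The lymphoid organ ligand Cxcl12 had 254, 348 and 306 CPM in KO iWAT against 468, 362 and 378 CPM in WT iWAT, without overlap, and a log2 fold change of -0.40 ± 0.20 (edgeR, Benjamini-Hochberg adjusted p = 1).

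**Figure D3:**
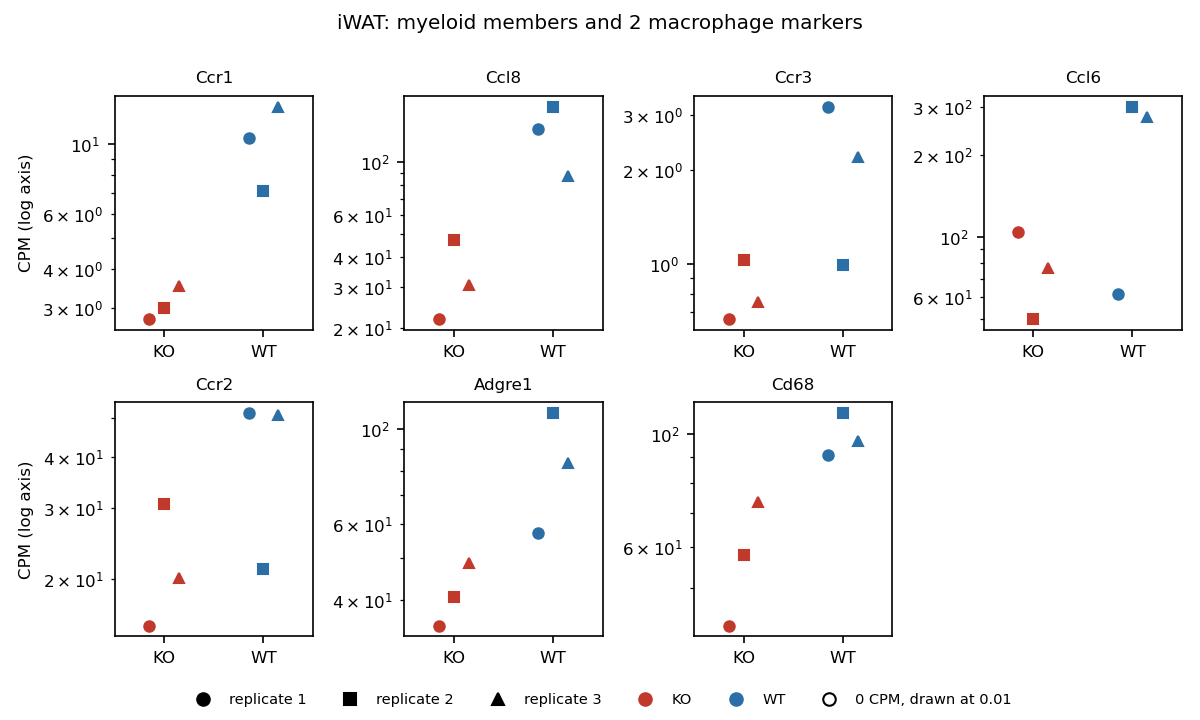
CPM on a log axis of myeloid members and of the macrophage markers Adgre1 and Cd68 in the 3 KO (left) and 3 WT (right) libraries of iWAT. Ccr1 and Ccl8 do not overlap between KO and WT, and neither does Cd68, with 42.1 to 73.6 CPM in KO and 90.9 to 110 CPM in WT.

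Macrophage markers were lower in the same KO libraries, but not they alone. A list of 8 adipose progenitor and fibroblast genes summed to 1633, 1328 and 1479 CPM in KO iWAT against 2216, 5969 and 2471 CPM in WT iWAT. Of these 8 genes 1 was higher in KO, with a median log2 fold change of -0.99 over the list and none called. Adgre1, which encodes F4/80, had 34.8, 40.7 and 48.6 CPM in KO iWAT against 57.3, 109 and 83.5 CPM in WT iWAT. The list of 12 macrophage genes summed to 1374, 1880 and 1987 CPM in KO iWAT against 2621, 2975 and 3074 CPM in WT iWAT, with 11 of its 12 genes lower in KO, a median log2 fold change of -0.69 and none called. Per 1000 CPM of that list, a ratio chosen after the values were seen, Ccl8 stood at 15.9, 25 and 15.3 CPM in KO iWAT against 52.8, 57.8 and 28.6 CPM in WT iWAT. On the same ratio Ccr1 stood at 2, 1.59 and 1.77 CPM in KO iWAT against 4, 2.38 and 4.29 CPM in WT iWAT. Both genes, which did not overlap in CPM either, stayed without overlap by narrow margins. Ccr2, Ccr3, Ccl6 and Ccl9 overlapped on the ratio as they did in CPM, and Cxcl12, without overlap in CPM, overlapped on it. The share of all genes without overlap on this ratio is not given. Whether Ccl8 and Ccr1 fell beyond the macrophage list was therefore not tested. A list of 8 neutrophil genes summed to 26.5, 49.3 and 143 CPM in KO iWAT against 607, 25.6 and 86.2 CPM in WT iWAT, and Cxcr2 had its highest iWAT level, 25.4 CPM, in the WT replicate 1 library at the top of that list.

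iWAT WT replicate 2 lay below the other 5 libraries for 22 and above them for 6 of the 42 members that reached 1 CPM in iWAT, where it was the lowest library for 27.6% of genes. Most lymphoid members were near 0 in it. Ccl21a had 113, 387 and 320 CPM in KO iWAT against 328, 0.45 and 316 CPM in WT iWAT, and Ccl19 had 26.8, 83.5 and 74.5 CPM in KO iWAT against 101, 0.961 and 53.9 CPM in WT iWAT. Their receptor Ccr7, which takes T cells and dendritic cells into lymph nodes, had 23, 90.3 and 75.8 CPM in KO iWAT against 54.7, 0.51 and 28.5 CPM in WT iWAT. Cxcr5, the receptor that takes B cells into follicles, had 19.4, 76.2 and 71.4 CPM in KO iWAT against 79.4, 0.18 and 33.4 CPM in WT iWAT. In each of these, KO and the other 2 WT libraries overlapped.

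Cxcl13, the ligand of Cxcr5, did not share that gap. It had 28.8, 58.8 and 47.8 CPM in KO iWAT against 63.1, 35.4 and 91 CPM in WT iWAT, and WT replicate 2 lay within the range of the others. Ccl5 had 2.1 CPM in WT replicate 2 and 37.8 to 119 CPM elsewhere in iWAT, and Ccl22 had 0.871 CPM there and 9.71 to 51.1 CPM elsewhere. Ccl8, Ccl6, Ccl9 and the eotaxin Ccl11 were highest in WT replicate 2, with 172, 302, 108 and 56.3 CPM. Cd79a, a B cell gene, had 0.931 CPM in that library and 102 to 331 CPM in the others, Cr2, found on B cells and follicular dendritic cells, had 0.0901 and 16.7 to 92.8 CPM, and Glycam1, made by high endothelial venules of lymph nodes, had 0.24 and 40.1 to 178 CPM. These 3 genes were near 0 in that library. A list of 9 genes of lymph node stroma and follicular dendritic cells was lowest there but not near 0, with sums of 359, 557 and 502 CPM in KO iWAT against 724, 178 and 484 CPM in WT iWAT, and it also summed to 127 to 233 CPM in liver. The amount of lymph node in each library was not measured in any other way.

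**Figure D4:**
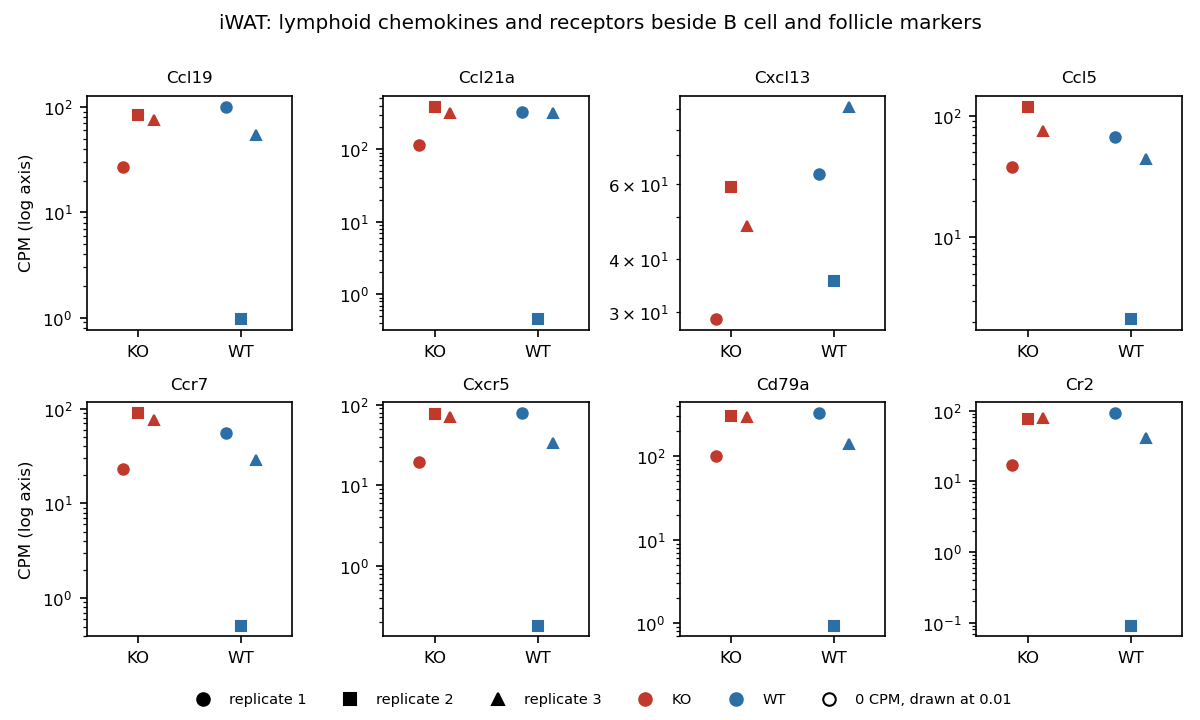
CPM on a log axis of lymphoid members and of the lymphoid markers Cd79a and Cr2 in the 3 KO (left) and 3 WT (right) libraries of iWAT. WT replicate 2 lies far below the other 5 libraries for Ccl19, Ccl21a, Ccl5, Ccr7, Cxcr5, Cd79a and Cr2, and among them for Cxcl13 at 35.4 CPM.

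Over all 46 members tested in iWAT the median log2 fold change was 0.18, and 30 were higher in KO, as were 52% of genes. Without WT replicate 2 the median was -0.15 and 15 of the 46 were higher, so the direction of the set depended on that library. In that fit 5 members had an unadjusted p under 0.05, against 3.41% of genes: Ccr1 (-1.93 ± 0.26), Ccl8 (-1.76 ± 0.36), Ccr3 (-1.71 ± 0.41), Ccr2 (-1.21 ± 0.29) and the interferon-inducible Cxcl11 (2.5 ± 0.78), each with an adjusted p of 1 (edgeR, Benjamini-Hochberg).

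In liver 0 members passed the test of KO minus WT with edgeR, where 0.0504% of all 11915 genes tested did, and DESeq2 also called 0 members and 0.572% of genes. Only 21 members passed the filter on low counts, of which 4 encode receptors. An unadjusted p under 0.05 was reached by 2 of the 21, against 6.04% of genes: Ccl2, higher in KO as were 2.87% of genes, and Ccl9, lower as were 3.17%. The groups did not overlap for 3, against 13.1% of genes: Ccl2, higher in KO as were 5.14% of genes, and Ccl9 and Ccl19, lower as were 7.92%. The median log2 fold change was -0.16 over the members and -0.00 over all genes.

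Ccl2 had 1.43, 1.42 and 5 CPM in KO livers against 0.745, 0.649 and 0.993 CPM in WT livers. All KO livers lay above all WT livers, with a log2 fold change of 1.72 ± 0.59 (adjusted p = 0.654, edgeR, Benjamini-Hochberg). Without KO replicate 3 it was 0.84 ± 0.49. Ccl7 had 0.19, 0.142 and 4.44 CPM in KO livers against 0.0827, 0.216 and 0.181 CPM in WT livers, so that KO replicate 3, with 48 reads, held 84.5% of its liver CPM. That library held over 50% of the CPM of 1 of 30 members that reached 1 CPM in liver and of 0.264% of genes, where 0.832% of genes had over 50% in any 1 of the 6 libraries. It was also the highest for Cxcl1, with 22.9 CPM against 6.05 to 15.5 CPM in the others, for Ccl6 with 46.9 CPM and for Ccr2 with 7.22 CPM, next to 5.19 CPM in WT replicate 2.

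Ccl9, a ligand of Ccr1 and the member of second highest FPKM in liver, had 69.2, 87.7 and 83.6 CPM in KO livers against 91.8, 154 and 115 CPM in WT livers. The groups lay next to each other without overlap (log2 fold change -0.56 ± 0.22, adjusted p = 0.762, edgeR, Benjamini-Hochberg). Ccl19 had 1.05, 0.498 and 1.2 CPM in KO livers against 1.24, 2.27 and 2.08 CPM in WT livers, a log2 fold change of -1.01 ± 0.47. Ccl6 had 27.9, 26.2 and 46.9 CPM in KO livers against 27.1, 30.6 and 25.6 CPM in WT livers, and its log2 fold change of 0.31 was -0.02 without KO replicate 3. Cxcl14 and Ccl21a were the other 2 of the 6 members of lowest p, with -0.75 and -0.71, and both overlapped. Kupffer cell genes, a list of 5 for the resident macrophages of liver, summed to 740, 736 and 623 CPM in KO livers against 877, 554 and 611 CPM in WT livers. The neutrophil list summed to 9.12, 6.97 and 18.8 CPM in KO livers against 73.3, 70.1 and 6.41 CPM in WT livers, and how it bears on Ccl2 or Ccl9 was not tested.

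**Figure D5:**
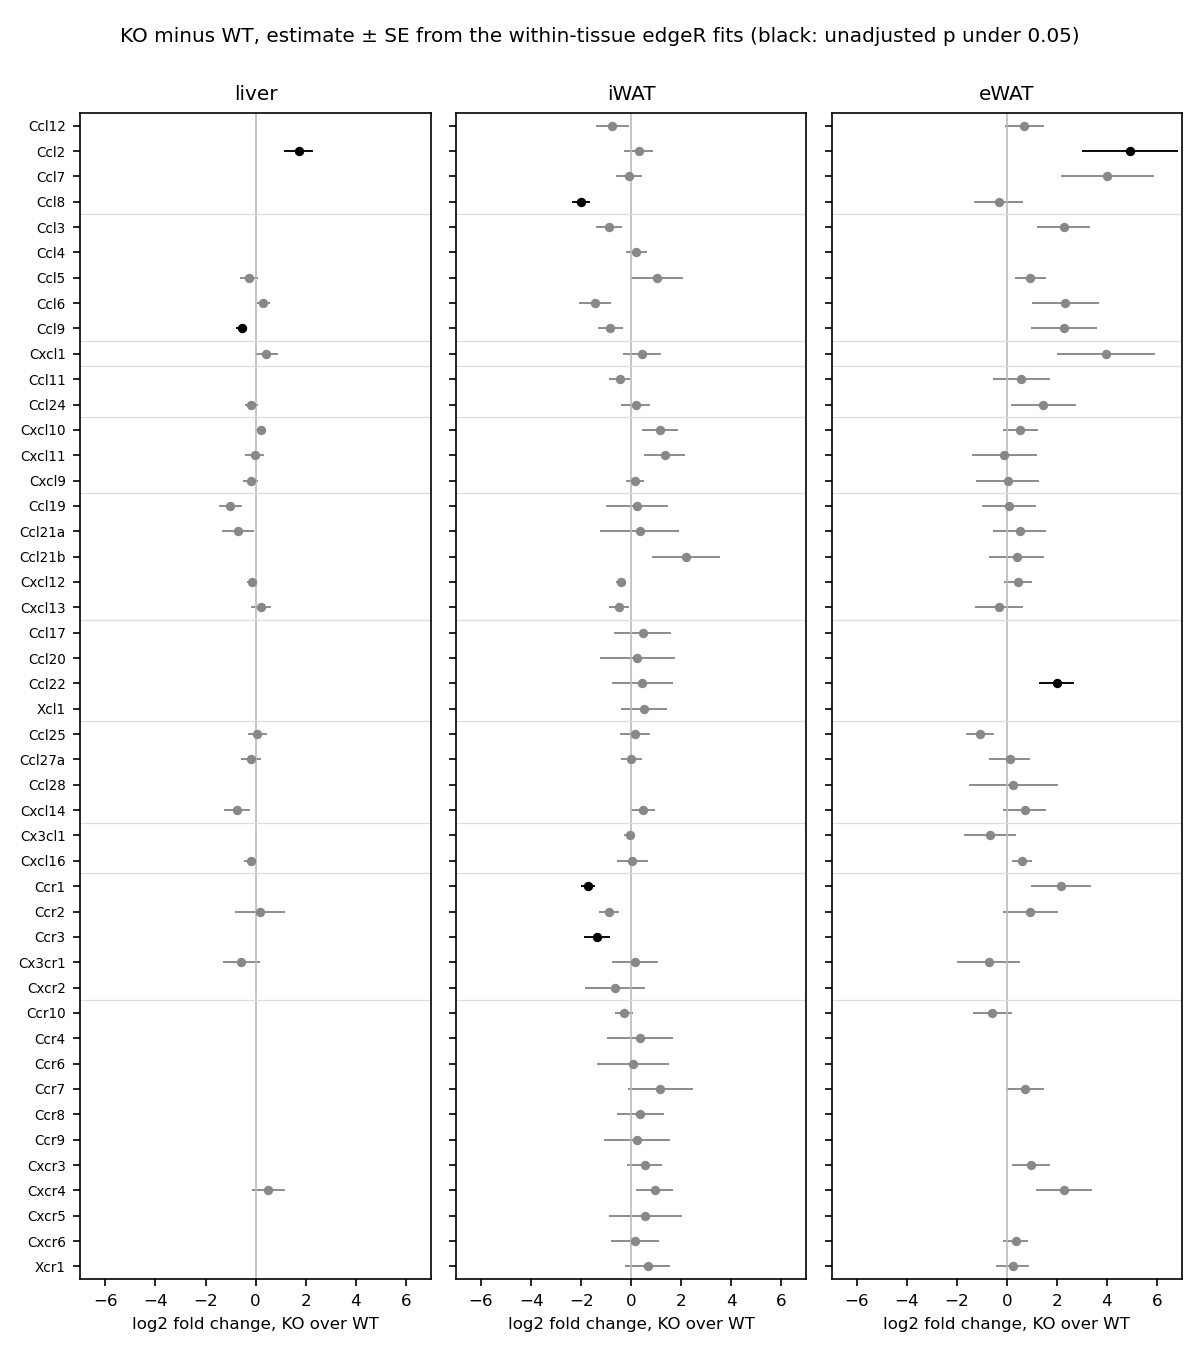
Log2 fold change of KO over WT with its SE for the members shown in eWAT, iWAT and liver, with black points for an unadjusted p under 0.05. No member passed the adjusted threshold in any tissue. The widest error bars belong to eWAT, where Ccl2 stands at 4.91 ± 1.92.

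The difference of the KO effect between tissues was tested in a fit of all 18 libraries. No member was called, and 0% of all genes were, in each of the 3 pairs of tissues. For iWAT minus eWAT an unadjusted p under 0.05 was reached by 8 of 48 members, against 5.82% of genes, all with a more negative KO effect in iWAT, as for 3.75% of genes. Among them were Ccl6 (-3.82 ± 1.32), Ccl3, Ccl2 (-4.59 ± 1.71), Ccl9, Cxcl2, Ccr3 and Ccr1 (-3.91 ± 1.72), with adjusted p between 0.783 and 0.85 (edgeR, Benjamini-Hochberg). All 8 were among the 16 members that eWAT KO replicate 2 carried. For liver minus eWAT 3 members did so, Ccl3, Ccr3 and Ccl9, against 6.36% of genes and 3.35% in their direction, and for liver minus iWAT none, against 2.63%. Without the 3 eWAT libraries with abundant epididymal transcripts, eWAT KO is again the single library. The log2 difference of Ccl2 for iWAT minus eWAT was then -5.72. This value describes that library, and no count of members is read from the fit.

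More members differed between tissues than between genotypes. Averaged over KO and WT in the fit of 18 libraries, 48 members were tested in each pair of tissues. Between iWAT and eWAT 21 of them were called, 20 higher and 1 lower in iWAT, where 25.3% of all genes were called, 13.2% higher and 12.2% lower. The median log2 fold change was 1.02 over the members and -0.03 over all genes. Of 11 lymphoid receptors, 10 rose in iWAT relative to eWAT, all but Ccr10. Cxcr5 rose by 7.27 ± 1.04 on the log2 scale (adjusted p = 0.000912), Ccr6, a receptor of B cells and helper T cells, by 6.83, Ccr7 by 6.21 ± 0.81 (adjusted p = 0.00067) and Ccr4, a receptor of T cells, by 5.41 (edgeR, Benjamini-Hochberg). Among 6 myeloid receptors Ccr3 alone was called, at 2.53.

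Of 31 ligands tested, 9 were called higher and 1 lower in iWAT, spread over several roles, where 25.3% of all genes were called. Cxcl13 had a median of 53.3 CPM in iWAT and 1.43 CPM in eWAT, with ranges of 28.8 to 91 and 0.295 to 2.59 CPM that did not overlap, and rose by 5.24 ± 0.52 (adjusted p = 0.000203, edgeR, Benjamini-Hochberg). Ccl22 rose by 5.49, Ccl5 by 4.15, Ccl19 by 3.72 and Ccl8 by 2.36. The neutrophil-attracting ligands and the eotaxins had no member called, with 2 of each tested. Ccl28 was the lower one, with a median of 0.065 CPM in iWAT and 6.99 CPM in eWAT, a log2 fold change of -6.29 ± 1.44 (adjusted p = 0.0114, edgeR). Ccl21a, at 2.37, was not called (adjusted p = 0.0856, edgeR), and iWAT WT replicate 2 lay below every eWAT library.

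The depot calls depended on which libraries entered. With the KO libraries alone 10 of 43 members were called, all higher in iWAT, against 7.02% of genes called and 4.55% called higher. With the WT libraries alone, which in each depot contain the library that stood apart, 0 of 37 members and 0 of all genes were called by edgeR, while 15 of the 37 had an unadjusted p under 0.05, against 14.6% of genes. Without the 3 eWAT libraries with abundant epididymal transcripts 12 of 51 members were called, 9 higher and 3 lower in iWAT, against 5.05% of genes called, 3.32% higher and 1.72% lower. T cell and B cell lists moved with the lymphoid members, with 11 of 11 and 10 of 10 genes higher in iWAT.

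Between liver and iWAT 36 of 48 members were called, 5 higher and 31 lower in liver, where 70.1% of all genes were called, 27.9% higher and 42.2% lower. The median log2 fold change was -3.53 over the members and -0.43 over all genes. All 11 lymphoid receptors tested and 5 of 6 myeloid receptors were lower in liver, with Ccr6 at -7.70 ± 1.24 (adjusted p = 6.68e-05), Ccr4 at -6.84, Ccr7 at -6.76 ± 0.87 (adjusted p = 8.22e-06) and Cxcr5 at -6.51 (edgeR, Benjamini-Hochberg). Ccl11 had at most 0.216 CPM in liver and at least 21.1 CPM in iWAT (-8.62 ± 0.97), and Ccl8 at most 0.433 CPM in liver and at least 21.8 CPM in iWAT (-8.00 ± 0.71). Both ligands were near the counting limit in every liver library.

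The 5 members higher in liver than in iWAT were Cxcl1 (3.89 ± 0.96, adjusted p = 0.00216), Cxcl11 (2.27), Ccl27a (2.14), Ccl25 (1.10) and Cxcl12 (1.03 ± 0.28, adjusted p = 0.00403, edgeR, Benjamini-Hochberg). Cxcl1 had a median of 8.76 CPM in liver and 0.711 CPM in iWAT without overlap. The direction of Cxcl12 and of Ccl25 depended on the scale: on log2(FPKM + 1) they stood at -0.46 and -0.10, where the median of all genes was -0.93. On that scale limma called 1 member higher and 37 lower in liver, beside 5 higher and 31 lower in the main fit.

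Between liver and eWAT 24 of 48 members were called, 7 higher and 17 lower in liver, where 70.5% of all genes were called, 28.2% higher and 42.3% lower. The median log2 fold change was -0.95 over the members and -0.37 over all genes. The split between directions depended on the scaling, with 3 higher and 18 lower under upper quartile scaling and 2 higher and 17 lower by limma on log2(FPKM + 1), where the median of all genes was -0.91. Cxcl12 had a median of 689 CPM in liver and 230 CPM in eWAT without overlap and was higher by 1.81 ± 0.28 (adjusted p = 5.52e-05), and Cxcl10, an interferon-inducible ligand, by 2.18 ± 0.46 (adjusted p = 0.000679, edgeR, Benjamini-Hochberg). Cxcl1 was higher in liver by 2.82 ± 0.92 with overlap through eWAT KO replicate 2, and Cxcl13 by 1.29 ± 0.47 with ranges of 1.74 to 4.88 CPM in liver and 0.295 to 2.59 CPM in eWAT. Ccl27a and Ccl25, at 1.13 and 0.90, turned to -0.21 and -0.24 on log2(FPKM + 1).

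Lower in liver than in eWAT were Ccl11 (-8.04 ± 0.97), Ccl8 (-5.64 ± 0.68), Cx3cl1 (-5.04 ± 0.66), Ccl12, a mouse monocyte-attracting ligand (-4.74 ± 0.92), and Ccl21b (-4.21 ± 1.05), with adjusted p between 4.23e-06 and 0.00258 (edgeR, Benjamini-Hochberg). Cx3cl1 had 0.142 to 0.926 CPM in liver and 5.18 to 63.4 CPM in eWAT, and so did not overlap. Ccl28 had 0 reads in all 6 liver libraries, where 3 counts over the 6 libraries would be 0.0443 CPM, and 9.22 CPM over the pooled eWAT libraries (1549 counts), at least 208-fold higher in eWAT. Of these counts 866 came from KO replicate 1, and without that library the pooled level was 5.37 CPM and the bound 121-fold. The eWAT level was not high throughout: KO replicate 2, at 0.0387 CPM, lay below the 0.0443 CPM of the liver limit. The bound covers counting error only.

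The genes that act with the chemokine system were described as 3 lists: 35 genes of receptor signalling in the cytoplasm, 11 atypical receptors and chemokine-like ligands outside the naming rule, and 20 inducers of chemokine genes. No gene of the 3 lists passed the test of KO minus WT in any tissue with edgeR. In eWAT 5 of 34 signalling genes had an unadjusted p under 0.05, a larger share than the 5.75% of all genes. In the same test 0 of 11 atypical members and 1 of 15 inducers had one. In iWAT 0 of 35, 1 of 11 and 2 of 17 did, against 4.17% of all genes, and in liver 1 of 33, 0 of 8 and 1 of 16, against 6.04%. In eWAT 27 of 34 signalling genes tested were higher in KO, against 48.5% of all genes. Their median log2 fold change was 0.38, beside -0.02 over all genes. The lowest p belonged to Rgs1, a brake on G protein signalling in lymphocytes (1.74 ± 0.57), Vav1, a guanine nucleotide exchange factor of blood cells (2.01 ± 0.65), and Tnfrsf11a, which encodes the receptor RANK (1.25 ± 0.41), each with an adjusted p of 0.706 (edgeR, Benjamini-Hochberg). Vav1 had 8.52, 32.2 and 10.7 CPM in KO eWAT against 6.36, 3.12 and 3.2 CPM in WT eWAT, again with KO replicate 2 on top and, unlike Ccl2, with all 3 KO libraries above the WT libraries. In iWAT Ackr2, an atypical receptor that clears inflammatory CC chemokines, had 4.05, 5.24 and 6.69 CPM in KO against 7.78, 14.3 and 10.7 CPM in WT, without overlap (-1.04 ± 0.30, adjusted p = 1, edgeR).

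Between iWAT and eWAT 25 of 35 signalling genes rose and 0 fell in iWAT (median 1.54), where 13.2% of all genes were called higher and 12.2% lower. They were led by Rac2, a GTPase of leukocytes (3.77 ± 0.54, adjusted p = 0.000912), and Pik3cd, Vav1 and Grk2 were also higher. Of 17 inducers tested 11 rose, with Ltb, which encodes lymphotoxin beta and drives lymphoid chemokines, at 5.91 ± 0.79 (adjusted p = 0.000749, edgeR, Benjamini-Hochberg). Of the 11 atypical members 1 rose, Ackr2 (1.55), and 1 fell, Ppbp (-3.96). Between liver and iWAT 30 of 35 signalling genes fell in liver (median -2.35), 11 of 17 inducers fell and 1 rose, and 6 of 11 atypical members fell and 2 rose, against 42.2% of all genes lower and 27.9% higher. Between liver and eWAT 18 of 35 signalling genes fell and 2 rose, 3 of 17 inducers fell and 5 rose, and 7 of 11 atypical members fell and 2 rose. Of all genes 70.5% were called there, 42.3% lower and 28.2% higher, and the shares of signalling genes and inducers called did not exceed that background. Among the atypical members were Ackr3, a scavenger of Cxcl12, at -3.90 ± 0.47, and Mif at 2.40 ± 0.22 (adjusted p = 3.29e-07, edgeR, Benjamini-Hochberg).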

How the data were processed

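Polyadenylated RNA was extracted with Trizol and sequenced on an Illumina NovaSeq instrument, per the labels' protocols. DESeq2, edgeR, RSEM, HISAT2, StringTie (1.3.1), Bowtie2 (2.2.8) and fastp (0.18.0) are listed, per the submitters' processing notes, without the role of each, with the build mm10. The authors deposited an expected count per gene and library, an estimate that need not be whole (8.33% were at least 0.01 from a whole number). The authors also deposited FPKM, used here for levels between genes and for alternatives.

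Expected counts were rounded, filtered with filterByExpr (minimum count 10, minimum total 15) and TMM-scaled. KO minus WT was fitted within each tissue, and tissue contrasts and differences of the KO effect in 1 fit of 6 groups, with the robust quasi-likelihood functions of edgeR 4.0.16 under R 4.3.3. P-values were adjusted by Benjamini-Hochberg over all genes tested, with a threshold of 0.05. SEs are the absolute log2 fold change over the square root of F. CPM use TMM factors over all 18 libraries. Tests were checked on simulated counts. These had a single fixed spread and no library that stood apart, so the check does not cover libraries like those described here.

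Members, roles and lists were chosen with earlier results of these data known. Genes named with values per library were the 6 members of lowest p and of highest median FPKM per tissue, those with over 50% of their CPM in 1 library, and the 6 largest called changes per direction between tissues; others are marked or were named for groups without overlap, for their role or for a library that stood apart. Alternatives were other scalings, no filter, DESeq2 1.42.0, limma 3.58.1 on FPKM, a replicate block, and leaving out libraries. Replicate numbers were not used to pair libraries in the main fits. Correlations of deviations between KO and WT of the same number ran from -0.634 to 0.121. Between 2 tissues of the same genotype and number they ran from -0.211 to 0.231. Whether equal numbers mark tissues of the same animal is not stated, so the tissue tests may ignore such a pairing. Promoters came from RefSeq (GRCm38.p6), with 42 of 57 members matched. 1 member, counted in the totals, is not reported here.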

Additional observations from a re-analysis of the deposited data

How the results depend on the processing

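No member was called in a genotype comparison under the alternatives run, with 2 exceptions: DESeq2 called 2 in iWAT, and leaving out the 3 eWAT libraries with abundant epididymal transcripts called 5 in eWAT (3 of which failed the filter over all 6 eWAT libraries) and 2 for the KO effect in iWAT minus eWAT. Leaving out the 3 eWAT libraries left KO replicate 2 as the lone KO library of eWAT, with no spread of its own. The counts of 5 and 2 therefore describe that library, and no effect of genotype is read from them. Over all genes DESeq2 called 63 in liver, 60 in iWAT and 128 in eWAT, and edgeR 6, 0 and 0. For iWAT minus eWAT, 10 members were called with KO libraries only and 0 with WT libraries only, beside 21 in the main fit. Of all genes 7.02%, 0% and 25.3% were called in the same order. For liver minus eWAT 9 of 30 members were called with WT libraries only, where 40.4% of all genes were. The main fit called 24 there, where 70.5% of all genes were called. With 1 library left out at a time, 48 or 49 members were tested between tissues. For iWAT minus eWAT 18 to 26 were called, where 14.6% to 27.6% of all genes were. For liver minus eWAT 18 to 23 were called, against 65.6% to 69.9% of genes. For liver minus iWAT 33 to 37 were called, against 64.7% to 67.1% of genes. The count was 0 for KO minus WT and for its difference between tissues. The replicate block gave 0 calls in each genotype comparison. Between tissues it gave 19 for liver minus eWAT, 33 for liver minus iWAT and 21 for iWAT minus eWAT, of 48 tested. Of all genes 66.6%, 67.8% and 17.3% were called in the same order. Whether equal replicate numbers mark the same animal is not stated. Among the members named for the lowest p or the largest called change, directions reversed for Ccl6 in liver (-0.02 without KO replicate 3, in a range of -0.02 to 0.46 with 1 library left out) and on log2 FPKM with 1 or 0.1 added or a minimum of 1 FPKM: Ccl27a in liver minus eWAT (-0.21, -0.21 and -0.21), Ccl25 in liver minus eWAT (-0.24, -0.37 and -0.24) and liver minus iWAT (-0.10, -0.15 and -0.10), and Cxcl12 in liver minus iWAT (-0.46, -0.46 and -0.46). Of the other values of these members, 852 kept direction and call, 46 lost the call and 4 gained it; the cause was not tested. Over all members tested, at least 1 alternative gave KO minus WT the opposite sign for 20 of 36 in eWAT, 22 of 46 in iWAT and 12 of 21 in liver. In eWAT the log2 fold change ran from -0.31 to 3.28 for Ccr1, -0.50 to 1.61 for Ccr2, -0.06 to 2.10 for Ccl24, -1.25 to 1.57 for Cx3cr1, -1.16 to 1.18 for Cx3cl1 and -7.14 to 0.88 for Ccl28. In liver, 36 members failed the filter on low counts of the main fit. With no filter 48 members were tested for KO minus WT in liver and 0 were called, where 0.0676% of all genes were. At such low counts a difference could be missed.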
